A study of Mus musculus with 36 samples.

Results

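The Nanog-alone regions are stretches of the mouse genome that carried the histone mark H3K4me3 in all 3 culture conditions studied and a peak of the pluripotency factor Nanog, but no peak of its partners Oct4 (Pou5f1) or Sox2. They were found by merging the deposited H3K4me3 peak lists of serum, 24 h of 2i and 3 passages of 2i wherever peaks overlapped by at least 1 bp on chromosomes 1 to 19 and X, which gave 23044 regions. Of these, 13233 were called in all 3 lists. A serum H3K4me3 peak over 4000 bp wide removed 583, and 12650 were left. A Nanog peak made with the first antibody lot overlapped 3785 of the 12650. An Oct4 peak overlapped 466 and a Sox2 peak 1068 of the 3785, 1153 had either, and the other 2632 are the Nanog-alone regions. They are 20.8% of the 12650 (95% interval 20.1 to 21.5) and 69.5% of the 3785 (68.0 to 71.0). They were thus chosen by the lot 1 Nanog calls, the Oct4 and Sox2 calls and the H3K4me3 calls, which are given below as a description and not tested.

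Nanog is a homeodomain transcription factor that helps to hold embryonic stem cells in self-renewal. In these cells it is known to share many of its sites with Oct4, a POU factor, and Sox2, an HMG-box factor, which bind DNA as a pair at many enhancers of pluripotency genes. H3K4me3, trimethylation of lysine 4 of histone H3, is laid down mainly around the start sites of active and poised genes, so regions that carry it in every medium are often promoters. No gene annotation of the files' build was used here, and the regions are named by position.

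KH2 mouse embryonic stem cells, an established line, were grown in serum medium with LIF on irradiated mouse embryonic fibroblast feeders, or in 2i, a medium with kinase inhibitors that holds embryonic stem cells near the naive ground state, also with LIF. Lot 1 of the Nanog antibody (20100713) was used on KH2 cells grown in serum, in 2i for 24 h and in 2i for 3 passages, with 2 samples in each condition. Lot 2 (C01MG07) was used on DNMT triple-knockout (TKO) embryonic stem cells after 24 h of 2i, on KH2 cells after 24 h of 2i and on KH2 cells labelled GFP-high in serum, with 1 sample each. The labels name neither the parent line of the TKO cells, nor which DNA methyltransferase genes they lack, nor what drives GFP. The H3K4me3, Oct4 and Sox2 lists were all of KH2 cells, so none of them was measured in TKO cells, and the Oct4 lists covered serum and 24 h, with 1 sample each. The labels give the culture of the 24 h KH2 cells with the suffix v1 for lot 1 and v3 for lot 2 and do not say what the suffixes mean.

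Each condition was represented by 1 deposited peak list in which any replicates had been pooled. The spread between replicates is therefore not in the files, and no difference between lists was tested. Intervals are exact binomial (Clopper-Pearson) 95% intervals over regions and cover counting error only. The 6 Nanog lists differed in length, from 21893 peaks for KH2 at 24 h with lot 2 to 41729 for 24 h with lot 1, and in their lowest −log10 q, from 12.8 at 3 passages to 27.6 in TKO cells. They also differed in the sequences named: the serum and 24 h lists of lot 1 had 21 and 26 peaks on Y and 0 on unplaced contigs, while the other 4 had 0 to 2 on Y and 22 to 42 on unplaced contigs. Comparisons of 24 h with serum within lot 1, and of the lot 2 lists with each other, lie within these groups. Culture time cannot be told apart from this difference where 3 passages are set against the other lot 1 lists, nor can the lot where lot 2 is set against lot 1 in serum or at 24 h. The Oct4 lists held 5011 peaks in serum and 7820 at 24 h, and their lowest −log10 q was 86.4 and 85.9. For Sox2 the lowest was 17.3 in serum, 3.69 at 24 h and 7.52 at 3 passages. A Nanog-alone region is therefore one with no listed Oct4 or Sox2 peak, which does not show that these factors were absent. Read depth is unknown, because the lists hold no counts.

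With lot 1 and the lists as deposited, Nanog was called at most of the Nanog-alone regions after 24 h of 2i and at fewer of them in serum and after 3 passages. Nanog was called at 1068 of the 2632 regions in serum (40.6%, 38.7 to 42.5), at 2353 after 24 h of 2i (89.4%, 88.2 to 90.6) and at 861 after 3 passages (32.7%, 30.9 to 34.5). Among all 12650 H3K4me3 regions the same lists called 15.4%, 27.4% and 13.2%. These values are fixed in part by the choice of the regions, which required 1 of the 3 calls. All 3 lists called 436 regions (16.6%), against 9% of the 12650. With all 6 Nanog lists at the length of the shortest and the regions chosen again, 1029 regions met the rule and the order of the first pair of conditions turned. Serum then called 68.9% of them, 24 h 58.2% and 3 passages 34.5%. The low share at 3 passages was thus seen in both settings, and the lead of 24 h over serum only with the lists as deposited.

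The order of conditions was another outside the mark. Nanog lot 1 peaks that met no H3K4me3, Oct4 or Sox2 peak formed 27483 regions, of which 31.9% were called in serum, 75.3% at 24 h and 57.0% at 3 passages. At equal length these shares were 48.1%, 52.2% and 55.2% of 13752 regions. The share called at 3 passages was therefore the lowest of the 3 at the Nanog-alone regions and the highest at regions outside H3K4me3 once the lists had one length. The 1153 H3K4me3 regions that carried Oct4 or Sox2 beside Nanog were called more often in every list, at 76.8% in serum, 96.2% at 24 h and 69.9% at 3 passages, and their order also turned at equal length, to 88.1%, 81.2% and 69.9%. No test of these differences between classes was possible.

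**Figure D1:**
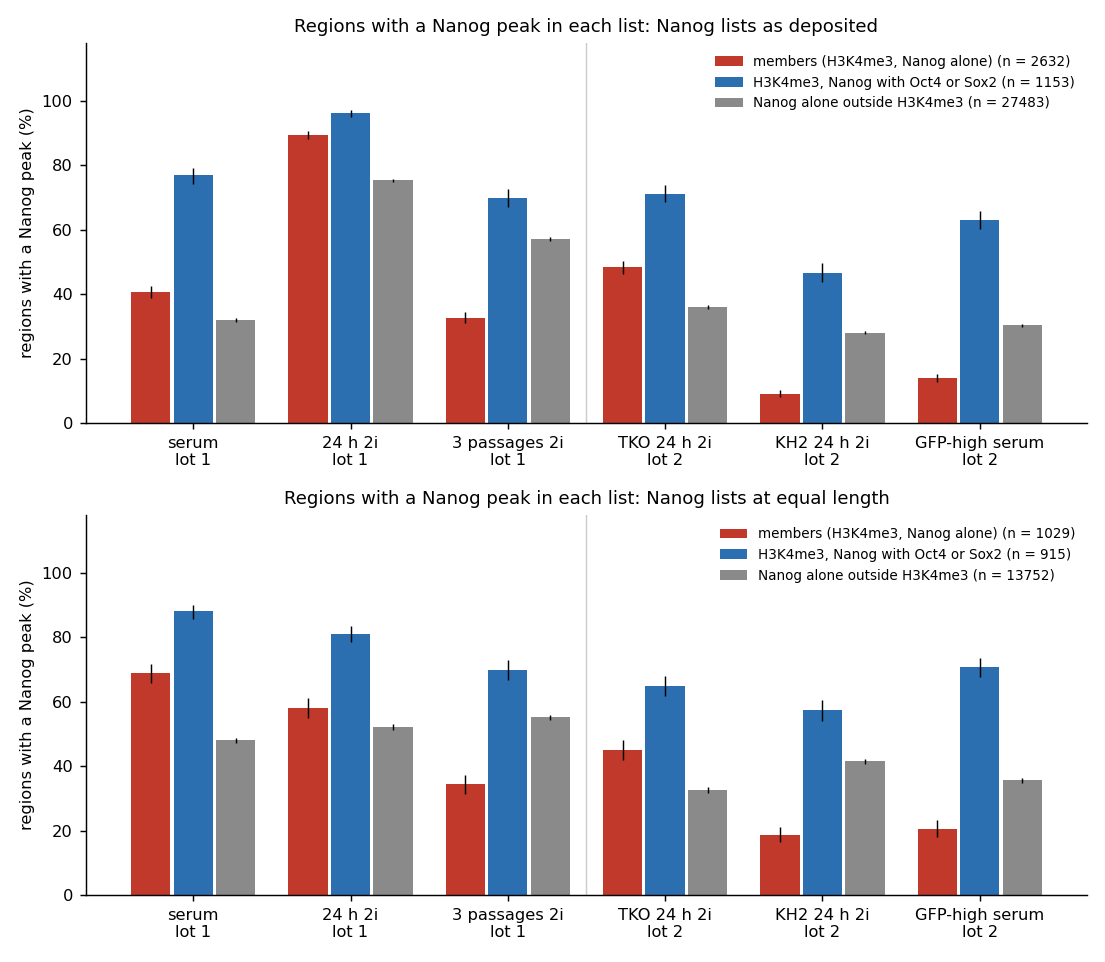
Percentage of regions with a Nanog peak (vertical axis) in each of the 6 Nanog lists (horizontal axis) for the Nanog-alone H3K4me3 regions (red), H3K4me3 regions with Nanog and Oct4 or Sox2 (blue) and Nanog regions outside H3K4me3 (grey). The upper panel uses the lists as deposited and the lower panel lists of equal length. Bars are exact binomial 95% intervals. With lot 2 the red bar reaches 48.3% in TKO cells and 9.08% in KH2 cells at 24 h as deposited, and 45.0% and 18.8% at equal length.

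The lot 1 calls fell into 7 patterns. The commonest was a call at 24 h and in no other lot 1 list, at 1151 regions (43.7%). Serum and 24 h together called 458 regions, 24 h and 3 passages 308, serum alone 162, 3 passages alone 105, and serum with 3 passages 12. Going by pairs of lists, 1459 regions were called at 24 h and not in serum (55.4%, against 13.5% of the 12650), and 174 in serum and not at 24 h (6.61%, against 1.61%). At 3 passages and not in serum there were 413 (15.7%, against 4.06%), and in serum and not at 3 passages 620 (23.6%, against 6.32%). Between the 2i lists, 117 were called at 3 passages and not at 24 h (4.45%, against 1.07%) and 1609 at 24 h and not at 3 passages (61.1%, against 15.3%). The choice of the regions used these calls, so the comparison with the 12650 shows no more than that choice.

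Regions called in serum were mostly called at 24 h as well, but so were the Nanog-alone regions as a whole. The 24 h list called 89.4% of all Nanog-alone regions, 75.3% of those outside H3K4me3 and 96.2% of those with Oct4 or Sox2. Of the 1068 serum calls, 83.7% were called at 24 h, against 66.7% of the serum calls outside H3K4me3 and 96.6% of those with Oct4 or Sox2. Far fewer met the 3 passage list, at 41.9% of the serum calls and 31.6% of the 24 h calls at Nanog-alone regions. Outside H3K4me3 the matching shares were 52.8% and 55.4%, and with Oct4 or Sox2 they were 79.7% and 71.1%. Of all regions in these classes the 3 passage list called 32.7% at Nanog-alone regions, 57.0% outside H3K4me3 and 69.9% with Oct4 or Sox2. All these classes were chosen by the lot 1 calls, so the overlaps follow in part from the share each list called.

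The lot 2 lists took no part in the choice of the regions. TKO cells after 24 h of 2i had a Nanog peak at 1271 of the 2632 regions (48.3%, 46.4 to 50.2), against 24% of all 12650. KH2 cells after 24 h of 2i had one at 239 (9.08%, 8.01 to 10.2), against 6.55%, and GFP-high KH2 cells in serum at 369 (14.0%, 12.7 to 15.4), against 9.15%. At least 1 lot 2 list called 1425 regions (54.1%, against 26.7%), and at least 1 lot 2 list of KH2 cells called 476 (18.1%, against 10.6%). The 12650 include the regions with Oct4 or Sox2, where the lot 2 shares were far higher, at 71.2% in TKO cells, 46.7% in KH2 cells at 24 h and 63.0% in GFP-high serum cells. At the 8445 H3K4me3 regions with no lot 1 Nanog, Oct4 or Sox2 peak they were lower, at 10.4% in TKO cells, 0.557% in KH2 cells at 24 h and 0.616% in GFP-high serum cells. Nanog-alone regions thus stood well below the regions with partner factors in each of the lot 2 lists. Both of these classes had a lot 1 Nanog peak. They stood above the regions with no factor, but those were chosen for lacking a lot 1 Nanog peak, so that order follows in part from the choice.

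Only 74 of the Nanog-alone regions were called in all 6 Nanog lists (2.81%, 2.21 to 3.52), against 4.02% of the 12650 and 37.7% of the regions with Oct4 or Sox2. In 1 list only there were 886 (33.7%), in 2 lists 757, in 3 lists 469, in 4 lists 320 and in 5 lists 126. The lot 2 calls were more frequent where more lot 1 lists had a peak. TKO cells called 33.5% of the 1418 regions with 1 lot 1 list, 56.8% of the 778 with 2 and 81.2% of the 436 with 3. In KH2 cells at 24 h these shares were 2.96%, 11.6% and 24.5%, and in GFP-high serum cells 5.01%, 15.7% and 40.4%.

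At 24 h of 2i in KH2 cells both lots could be set side by side. Lot 2 and lot 1 both called 200 Nanog-alone regions, lot 2 alone 39 (1.48%, against 0.783% of the 12650) and lot 1 alone 2153 (81.8%, against 21.6%). Only 8.5% of the lot 1 calls were thus called with lot 2, against 47.7% at regions with Oct4 or Sox2 and 29.4% outside H3K4me3. In serum, GFP-high cells with lot 2 and serum cells with lot 1 shared 233 regions, with 136 only in GFP-high cells (5.17%, against 2.13%) and 835 only in serum cells (31.7%, against 8.43%). The 233 are 63.1% of the GFP-high calls and 21.8% of the serum calls. Lot, sorting for GFP, number of samples and list length differ together here and cannot be told apart. The rule required a lot 1 peak of every Nanog-alone region. Nothing is therefore read from setting the shares called with only one of the lots against those of the 12650.

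The lot 2 calls of KH2 cells at 24 h met the 3 passage list of lot 1 more than the 24 h list of lot 1. All constant H3K4me3 regions without Oct4 or Sox2 peaks were taken here, so that the choice of regions did not fix the overlap. They held 286 regions called with lot 2 at 24 h, of which 228 were called at 3 passages (79.7%) and 200 at 24 h with lot 1 (69.9%), although the 24 h list of lot 1 was the longer one. The 228 are 26.5% of the 861 regions called at 3 passages, and the 200 are 8.5% of the 2353 called at 24 h. By pattern the gap was wide. Of the 105 regions called at 3 passages and in no other lot 1 list, 36 were called with lot 2 at 24 h (34.3%, 25.3 to 44.2), against 6 of the 1151 called with lot 1 at 24 h alone (0.521%, 0.192 to 1.13). Of the 308 regions called at 24 h and 3 passages, 82 were (26.6%), and of the 458 called in serum and at 24 h, 5 were (1.09%). The Nanog-alone regions, each of which had to have a lot 1 peak, held 228 of their 239 lot 2 calls at 24 h where the 3 passage list had a peak, while 58 of the 286 had no 3 passage peak. The same order was seen in other classes, whose regions also had to have a lot 1 peak. Of the 7727 lot 2 calls outside H3K4me3 at 24 h, 92.4% met the 3 passage list and 78.9% the 24 h list of lot 1. With Oct4 or Sox2 beside Nanog the shares of the 538 calls were 99.1% and 98.3%. The order was thus not particular to regions without partner factors. The lists that agreed here are also those that name unplaced contigs, and the part of that difference was not tested.

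**Figure D2:**
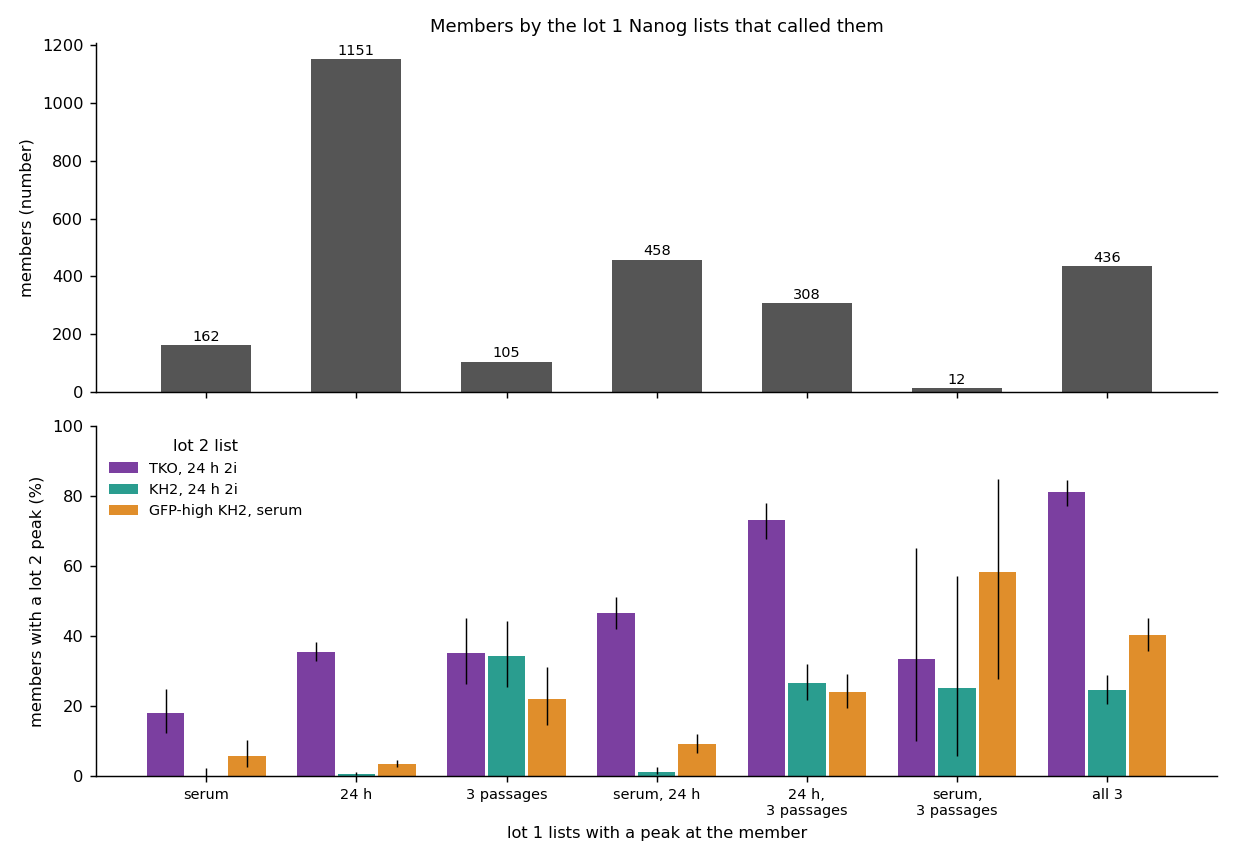
Number of Nanog-alone regions by the lot 1 lists that called them (upper panel) and the percentage of each with a Nanog peak in the 3 lot 2 lists (lower panel, bars with exact binomial 95% intervals). The patterns with a 3 passage call have the higher KH2 24 h shares, 24.5% to 34.3%, while those without one stay at 1.09% or below. TKO cells called 35.5% of the 1151 regions with a 24 h call alone.

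Within lot 2 and with the lists as deposited, fewer Nanog-alone regions were called at 24 h than in serum, the opposite of the order in lot 1. KH2 cells at 24 h of 2i and GFP-high serum cells shared 132 Nanog-alone regions, with 107 only at 24 h (4.07%, against 1.48% of the 12650) and 237 only in GFP-high serum (9.0%, against 4.08%). At equal length the shares of the 1029 regions were 18.8% at 24 h (16.4 to 21.3) and 20.7% in GFP-high serum (18.3 to 23.3). Both shares are over the same regions, so these intervals do not measure the difference between them. The share at 24 h was then the lower one with lot 1 too, as given above, so the opposite orders were seen only with the lists as deposited. Outside H3K4me3 the order depended on list length, with 28.1% at 24 h and 30.3% in GFP-high serum as deposited, and 41.6% at 24 h and 35.7% in GFP-high serum at equal length.

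With lot 2 and after 24 h of 2i, more Nanog-alone regions were called in TKO cells than in KH2 cells. Both called 187 Nanog-alone regions, TKO alone 1084 (41.2%, against 18.4% of the 12650) and KH2 alone 52 (1.98%, against 0.941%). The difference between the shares was 39.2 percentage points. At equal length TKO cells called 45.0% (41.9 to 48.1) and KH2 cells 18.8% (16.4 to 21.3), a difference of 26.2 points. Outside H3K4me3 the difference was small as deposited, at 35.9% in TKO and 28.1% in KH2 cells, and it turned at equal length, at 32.7% and 41.6%. At regions with Oct4 or Sox2 the shares were 71.2% in TKO and 46.7% in KH2 cells, and 64.9% and 57.5% at equal length. At the regions with no factor they were 10.4% in TKO and 0.557% in KH2 cells, and 4.62% and 0.926% at equal length. At those with Oct4 or Sox2 and no lot 1 Nanog they were 15.2% in TKO and 0.952% in KH2 cells, and 10.6% and 2.43% at equal length. The TKO list thus called more regions than the KH2 list in both settings in all 4 classes of constant H3K4me3 regions and not at Nanog-alone regions in particular, while at Nanog regions outside the mark the direction depended on list length. Cell line, DNA methyltransferases and the single library of each cannot be told apart.

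Against both KH2 lists of lot 2 together, 949 Nanog-alone regions were called in TKO cells and in neither of them (36.1%, against 16.1% of the 12650). Each Nanog-alone region had a lot 1 peak of KH2 cells by the rule, so every TKO call at these regions met one. Of the 1271 TKO calls 1201 were among the 24 h calls of lot 1 (94.5%). That list called 89.4% of all 2632 regions, so the overlap follows largely from the choice. Among all constant H3K4me3 regions without partner factors, where no such choice was made, TKO cells called 2151, of which 1201 met a 24 h peak of lot 1 (55.8%), 620 a 3 passage peak (28.8%), 600 a serum peak of lot 1 (27.9%), 257 a GFP-high peak (11.9%) and 208 a lot 2 peak of KH2 cells at 24 h (9.67%). The other 880 regions with a TKO peak had no lot 1 peak at all.

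The TKO share varied between chromosomes, from 35.0% of the 220 Nanog-alone regions on chromosome 2 to 68.4% of the 136 on chromosome 6 (59.9 to 76.1). Next to chromosome 6 came chromosome 8, with 62.6% of 171 (54.9 to 69.8), and chromosome 1, with 57.6%, and the lowest after chromosome 2 was X, with 39.0% of 59 (26.5 to 52.6). Outside chromosomes 6 and 8 the share was 46.1% of 2325 (44 to 48.1). The high TKO shares on chromosomes 6 and 8 were not particular to the Nanog-alone regions. Of all constant H3K4me3 regions TKO cells called 41.9% on chromosome 6, 32.3% on chromosome 8 and 22.5% on the others, and of those with no factor 25.5%, 16.1% and 9.32%. With Oct4 or Sox2 beside Nanog the shares were 84.6% of 65, 77.3% of 44 and 70.1% of 1044 regions, and outside H3K4me3 they were 47.3%, 42.4% and 34.8%. KH2 cells at 24 h with lot 2 called 11.0% of the Nanog-alone regions on chromosome 6, 8.19% on chromosome 8, 15.3% on X and 9.03% outside 6 and 8. Without chromosome 6 the TKO share was 47.2% and the KH2 share 8.97%. Copy number of the chromosomes was not measured in these lists. Nanog-alone regions made up from 15.1% of the constant H3K4me3 regions on X (11.7 to 18.98) to 25.1% on chromosome 8 (21.9 to 28.5).

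By fold enrichment, Nanog peaks at these regions were weak for their lists. The fold is the authors' value of each peak over the control, taken from the strongest peak by −log10 q in a region. Peaks were ranked by it within a list only, and folds of different lists that stand side by side below describe each list and show no change between them. In lot 1 the median was 7.43 in serum, 6.52 at 24 h and 5.61 at 3 passages, against medians over all peaks of the same list of 12.1, 10.8 and 8.90. In lot 2 it was 8.10 in TKO cells, 7.66 in KH2 cells at 24 h and 7.18 in GFP-high serum cells, against 10.8, 11.1 and 11.4. The median peak of a Nanog-alone region thus stood at percentile 10.6 of its list in serum, 12.7 at 24 h, 13.7 at 3 passages, 18.6 in TKO cells, 19.7 in KH2 cells at 24 h with lot 2 and 14.7 in GFP-high cells. At regions with Oct4 or Sox2 the median stood at percentile 51.2 to 60.1. Nanog regions outside H3K4me3 lay between, at percentile 34.3 to 40.8 in the 5 KH2 lists and 59.4 in TKO cells.

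Few Nanog-alone regions were among the strong peaks. The top 10% of a list by fold held 3 of the 1068 serum calls, 9 of the 2353 at 24 h and 8 of the 861 at 3 passages. In lot 2 it held 37 of the 1271 TKO calls (2.91%), 0 of the 239 KH2 calls at 24 h and 5 of the 369 GFP-high calls. Above the median fold of their own list lay 26.4% of the TKO calls, 21.3% of the KH2 calls at 24 h and 16.5% of the GFP-high calls. By −log10 q, the authors' measure of how far a peak stands above the control, the gap was narrower in TKO cells. The median −log10 q at Nanog-alone regions was 51.6 in TKO cells, 41.3 in KH2 cells at 24 h and 39.2 in GFP-high cells, against 53.9, 57.5 and 60.8 over all peaks of these lists. With lot 1 it was 20.3 in serum, 26.8 at 24 h and 21.5 at 3 passages, against 35.2, 44.9 and 37.0. The TKO peaks of these regions were thus low by fold but near the middle of their list by −log10 q. At Nanog regions outside H3K4me3 the median −log10 q with lot 1 was 23.0 in serum, 31.4 at 24 h and 24.0 at 3 passages. With lot 2 it was 43.0 in KH2 cells at 24 h, 42.6 in GFP-high cells and 67.4 in TKO cells. By −log10 q both classes thus lay below the list median in the 5 KH2 lists, and nearer to each other than to that median.

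**Figure D3:**
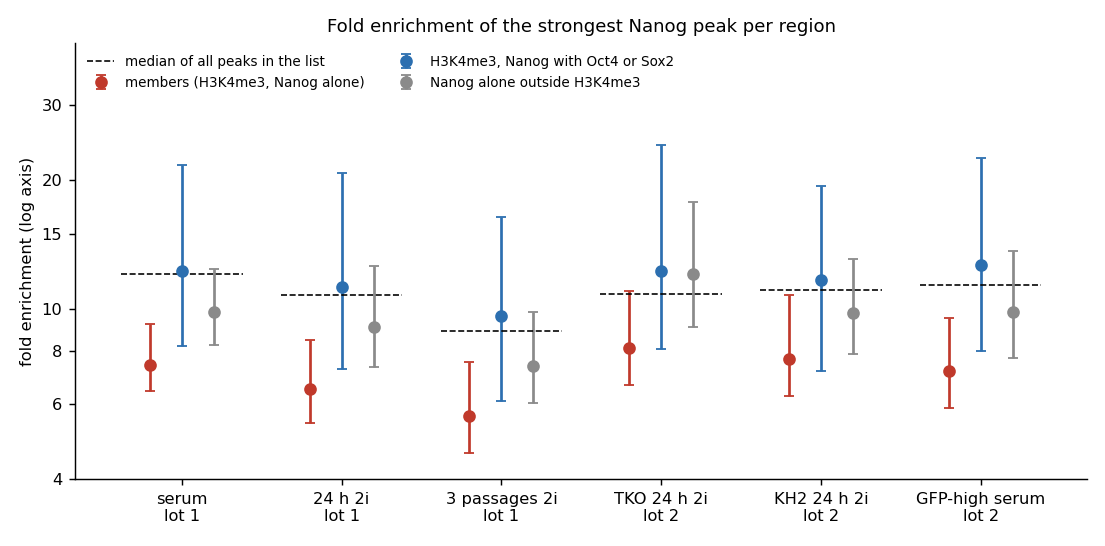
Fold enrichment (log axis) of the strongest Nanog peak per region in each of the 6 lists. Points are medians and bars run from the lower to the upper quartile for Nanog-alone regions (red), H3K4me3 regions with Oct4 or Sox2 (blue) and Nanog regions outside H3K4me3 (grey), and dashed lines mark the median of all peaks of the list. The red median lies below the dashed line in all 6 lists, from 5.61 against 8.90 at 3 passages to 8.10 against 10.8 in TKO cells.

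The regions called in several lot 1 lists held the stronger 24 h peaks. The median 24 h fold was 10.02 at the regions called in all 3 lists, 8.08 at those of 24 h and 3 passages, 6.61 at those of serum and 24 h and 5.73 at those of 24 h alone, which stood at percentiles 45.4, 29.5, 13.7 and 5.91 of the 24 h list. The 24 h calls shared with lot 2 in KH2 cells had a median lot 1 fold of 11.3, against 6.33 for those not shared. For the calls shared with TKO cells it was 7.29, against 6.00 for the rest. With the lists as deposited, TKO cells thus shared weaker lot 1 peaks than KH2 cells did with the same lot 2 antibody. The TKO list was the longer one, with 38516 peaks against 21893, and shared 1201 of the 2353 calls against 200. These medians were not taken at equal length, so the contrast cannot be told apart from list length.

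The position of the Nanog summit, the highest point of a peak, was not used in the choice. It lay a median of 382.5 bp from the H3K4me3 summit of the same condition in serum, 441 bp at 24 h and 578 bp at 3 passages with lot 1. With lot 2 it lay 475 bp away in TKO cells, 749 bp in KH2 cells at 24 h and 640 bp in GFP-high serum cells. For TKO cells and for both lots at 24 h the H3K4me3 list is that of KH2 cells at 24 h. In the regions with Oct4 or Sox2 the distances were 546.5, 566 and 662.5 bp in the 3 lot 1 lists, and 569 bp in TKO cells, 703 bp in KH2 cells at 24 h and 631 bp in GFP-high serum cells. Within 200 bp of the H3K4me3 summit lay 15.6% of the serum, 13.6% of the 24 h and 14.2% of the 3 passage summits of lot 1, and 14.5% in TKO cells, 16.7% in KH2 cells at 24 h and 9.76% in GFP-high cells.

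Set against the width of the region, Nanog at these regions lay nearer the middle than at regions with partner factors in the lot 1 and TKO lists. The central 50% of the merged region held 57.8% of the serum summits (54.7 to 60.8), 54.5% of those at 24 h (52.4 to 56.5) and 45.8% of those at 3 passages (42.4 to 49.2). At the regions with Oct4 or Sox2 it held 40.0% (36.7 to 43.3), 39.7% (36.8 to 42.6) and 33.7% (30.5 to 37.1). In TKO cells it held 51.3% at Nanog-alone regions (48.5 to 54.1) and 38.4% at those with Oct4 or Sox2 (35.0 to 41.8). In KH2 cells with lot 2 the shares were 34.7% (28.7 to 41.1) and 29.6% (25.7 to 33.6) at 24 h. In GFP-high cells they were 39.3% (34.3 to 44.5) and 32.6% (29.2 to 36.2). The intervals overlapped in these lists, which called fewer of the regions, and this does not show that the classes were alike. In these KH2 lists of lot 2 the distances in bp given above were the longer ones at Nanog-alone regions. The H3K4me3 summits themselves were more central, with 84.3% to 87.7% in that central part of the same regions. A summit can also fall outside the region, since only 1 bp of the peak had to overlap it, and 78.2% to 87.1% of the Nanog summits lay inside.

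**Figure D4:**
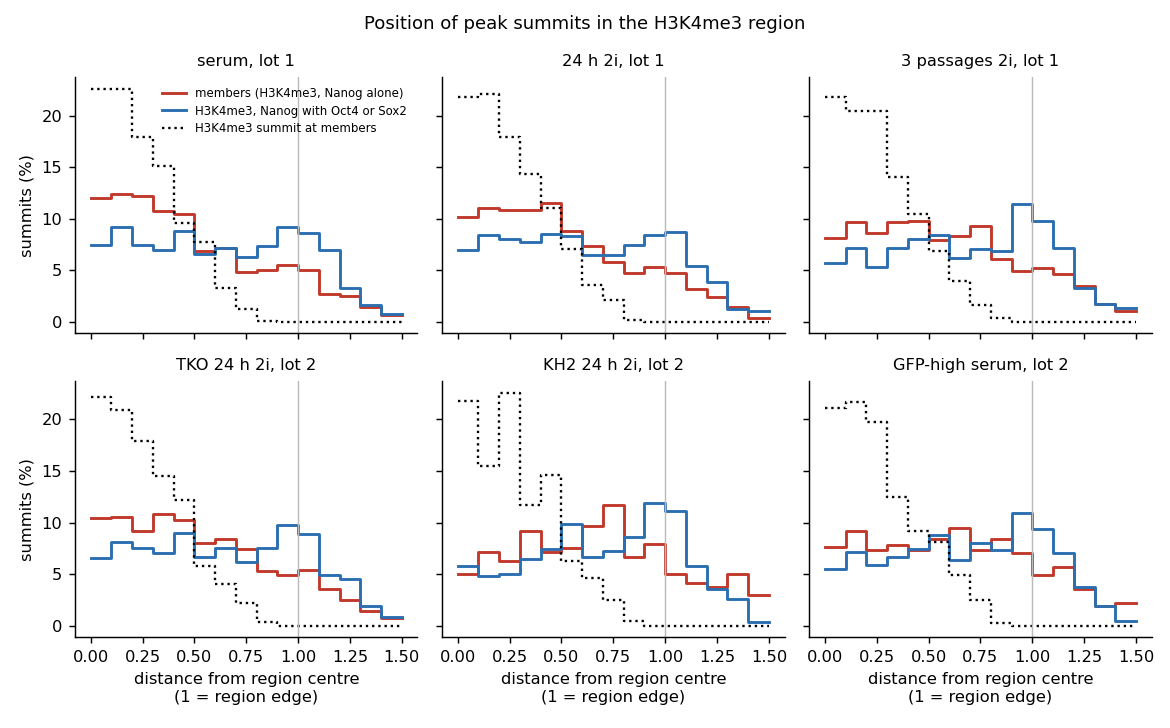
Distribution of summits by distance from the centre of the merged H3K4me3 region scaled so that 1 is the region's edge (grey line), with the percentage of regions per bin on the vertical axis and one panel for each Nanog list. Red is Nanog at Nanog-alone regions, blue Nanog at regions with Oct4 or Sox2, and the dotted line the H3K4me3 summit at Nanog-alone regions. The few summits beyond 1.5 are not drawn. Red lies above blue near the centre in the lot 1 and TKO panels, where the central 50% of the region holds 45.8% to 57.8% of the red summits.

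The 24 h calls that KH2 cells shared with lot 2 lay farther from the middle than the rest. Of the 2353 regions called at 24 h with lot 1, the 200 that KH2 cells also showed with lot 2 had their lot 1 summit 668.5 bp from the H3K4me3 summit and 38.0% of them in the central 50% (31.2 to 45.1). The 2153 that they did not show had it at 430 bp and 56.0% in the central 50% (53.9 to 58.1). For the 3 passage list the values were 515 bp and 45.7% where it had a peak and 421 bp and 58.5% where it had none. For the GFP-high list they were 571.5 bp and 42.4%, and 427 bp and 56.5%. For TKO cells the values were closer, at 456 bp and 53.0% with a TKO peak and 429 bp and 56.1% without one. For the serum list of lot 1 they were 431 bp and 55.3% with a peak, and 447 bp and 54.0% without one. Summits at 24 h were thus more often central where the KH2 lot 2 lists and the 3 passage list had no peak, while the splits by serum lot 1 and by TKO cells differed by under 4 percentage points. Fold enrichment moved with these splits too, as given above for lot 2, at 9.19 where 3 passages had a peak and 5.93 where it had none, and the part of each was not tested.

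Where different lists called the same region, their summits lay closest together between lot 1 lists and farthest apart where TKO and GFP-high cells were paired. Between lot 1 lists the median distance was 28 to 34 bp and 85.7% to 89.0% of pairs lay within 100 bp. Between the lots at 24 h in KH2 cells it was 51 bp, with 73.5% within 100 bp, and between lot 2 at 24 h and lot 1 at 3 passages 35 bp, with 82.9%. Between TKO and KH2 cells at 24 h with lot 2 it was 61 bp, with 67.4% within 100 bp, and between TKO and GFP-high cells 86 bp, with 56.2%. Between TKO cells and the lot 1 lists it was 68 bp in serum, 59 bp at 24 h and 53.5 bp at 3 passages, with 65.5%, 69.5% and 73.1% within 100 bp. Between GFP-high cells and serum cells of lot 1 it was 53 bp, with 70.4%. At regions with Oct4 or Sox2 the median for TKO and KH2 was 47 bp.

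The H3K4me3 peaks of Nanog-alone regions were wider than those of regions with no factor. The widest peak per region had a median width of 2044 bp in serum, 1522.5 bp at 24 h and 1785 bp at 3 passages, against 1717, 1252 and 1453 bp at regions without any of the factors, and 2038, 1429 and 1712 bp at those with Oct4 or Sox2. The 420 regions with Oct4 or Sox2 and no lot 1 Nanog peak, at 2039, 1581 and 1795.5 bp, were no narrower. A wider region has more room for a peak, and no correction for that was made. The authors' H3K4me3 fold enrichment had a median of 17.7 in serum, 10.5 at 24 h and 14.3 at 3 passages, against 16.3, 9.31 and 12.3 at the regions with no factor and 14.7, 9.36 and 12.7 at those with partner factors. By lot 1 pattern the serum H3K4me3 fold differed little, with medians from 15.8 to 18.1.

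Among the constant regions without partner factors, those of up to 1000 bp were Nanog-alone regions in 16.1% of 907 cases (13.8 to 18.7) and those over 3000 bp in 39.2% of 1291 (36.5 to 41.9). The TKO share among Nanog-alone regions moved less with width, at 43.8% for those up to 1000 bp and 55.3% for those over 3000 bp. The KH2 share at 24 h was highest in the narrowest regions, at 13.0%, against 6.01% to 11.3% in the wider classes. In every width class more regions were called in TKO than in KH2 cells. At the regions with no factor the TKO share was 4.34% in the narrowest and 15.5% in the widest class, and the KH2 share 0.526% and 1.78%.

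**Figure D5:**
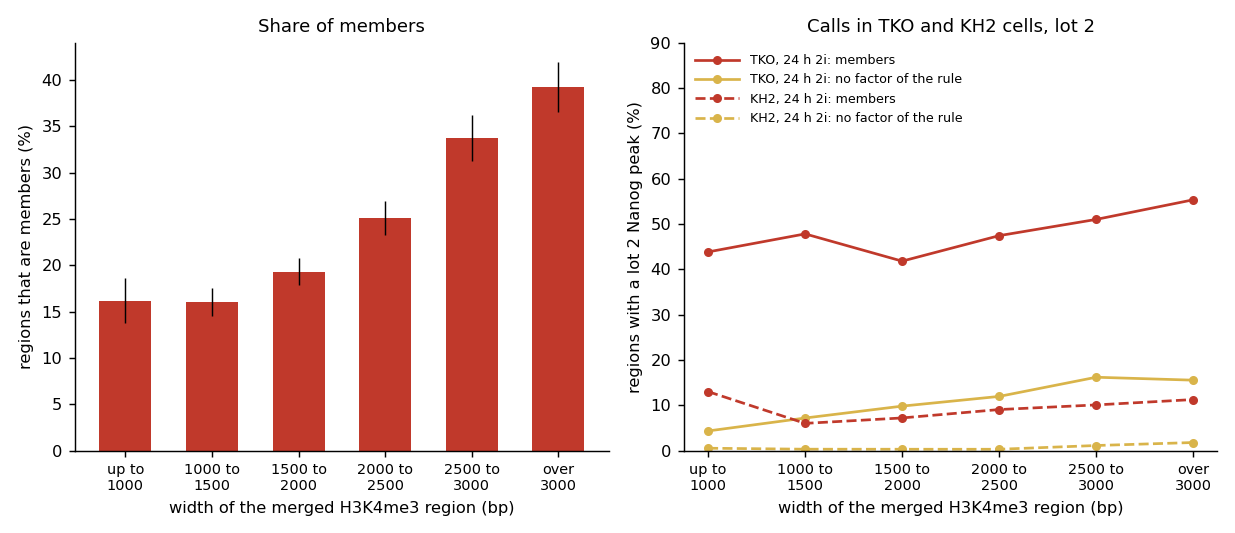
Left, the percentage of constant H3K4me3 regions without Oct4 or Sox2 peaks that are Nanog-alone regions, by width of the merged region in bp, with exact binomial 95% intervals. Right, the percentage with a lot 2 Nanog peak after 24 h of 2i in TKO cells (solid) and KH2 cells (dashed), at Nanog-alone regions (red) and at regions with no lot 1 Nanog, Oct4 or Sox2 peak (yellow). The red solid line lies between 41.8% and 55.3%, and the red dashed line between 6.01% and 13.0%.

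The listed Oct4 and Sox2 peaks were mostly far away. Both classes compared here were chosen to have no such peak in the region, and the Oct4 lists held strong peaks only. The distances follow in part from that. The median distance to the nearest one was 26199.5 bp for Nanog-alone regions and 30804 bp for the regions with no factor. Within 1000 bp lay 4.67% of Nanog-alone regions (3.90 to 5.55) and 2.46% of the others (2.14 to 2.82), and within 10000 bp 26.7% and 22.3%. A lot 1 Nanog region outside H3K4me3 lay within 1000 bp of 3.34% and 3.48%, and within 10000 bp of 29.0% and 26.0%. With the regions within 1000 bp of an Oct4 or Sox2 peak left out, 2509 remained, with a TKO share of 47.9% and a KH2 share of 8.69%.

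Single regions, picked by their values in these same lists, are given as examples of the strong end. The region with the highest serum fold and the lowest mean rank over the 6 lists was chr14:121903532-121905297, of 1766 bp. Its Nanog fold was 45.7 in serum, 33.6 at 24 h and 27.1 at 3 passages with lot 1, and 56.0 in TKO cells, 26.1 in KH2 cells at 24 h and 34.7 in GFP-high cells with lot 2. It stood between percentile 86.9 and 97.0 in every list, and its H3K4me3 folds were below the medians of Nanog-alone regions, at 6.24 in serum, 3.67 at 24 h and 6.14 at 3 passages.

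On chr3:10342349-10343904 the Nanog fold was 35.9 in serum, 42.2 at 24 h and 25.4 at 3 passages, and 52.1 in TKO cells, 22.3 in KH2 cells at 24 h with lot 2 and 8.44 in GFP-high cells. The GFP-high peak stood at percentile 27.6 of its list and the serum peak of lot 1 at percentile 91.6. The region chrX:140751636-140755368, 3733 bp wide, had 25.1, 46.1 and 36.9 in the 3 lot 1 lists, and 35.1 in TKO cells, 29.9 in KH2 cells at 24 h and 16.4 in GFP-high cells. Its peaks stood between percentile 68.4, in GFP-high cells, and 97.0, at 24 h with lot 1, and its H3K4me3 fold was 32.6, 19.8 and 33.6 in serum, at 24 h and at 3 passages. The remaining 2 of the 5 leading regions in all lists were chr5:111267561-111270949, with folds of 10.2 to 26.4, and chr8:41735809-41737515, with 9.80 to 48.5. These 5 were picked for a call in every list and a high mean rank, so neither shows that the lists agreed. Their lowest percentile in any list was 27.6.

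Regions called in all 2i lists of both lots, TKO included, and in neither serum list numbered 44 (1.67%, against 0.427% of the 12650). The leading one, chr2:118721622-118723328, had a lot 1 fold of 32.1 at 24 h and 18.3 at 3 passages, and a lot 2 fold of 34.7 in TKO and 9.20 in KH2 cells. On chr9:72960212-72963374 the values were 19.996 and 19.4 with lot 1, and 33.6 in TKO and 20.9 in KH2 cells with lot 2. The short region chr18:37911216-37911897 had 19.04 and 12.3 with lot 1, and 34.5 in TKO and 13.6 in KH2 cells. The opposite pattern, a call in both serum lists and in no 2i list of KH2 cells, was found at 9 regions (0.342%, against 0.119%). Both patterns need a lot 1 call, which the choice of the regions required of every Nanog-alone region, so nothing is read from these shares. It was led by chr16:48283015-48286036, with a fold of 15.0 in GFP-high cells and 14.3 in serum cells with lot 1, both above their lists' medians. The next, chr9:66889578-66892461, had 7.03 in GFP-high and 11.5 in serum cells and was also called in TKO cells, at 7.75. The last named, chr4:24777340-24779138, had 6.43 in GFP-high and 8.67 in serum cells.

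Among the 949 regions called in TKO cells and in no lot 2 list of KH2 cells, chr18:34809942-34812773 led with a TKO fold of 55.4, at percentile 96.9. In KH2 cells with lot 1 it had 5.64 at 24 h and 5.43 at 3 passages, near the low end of both lists. On chr6:124755114-124756848 the TKO fold was 54.7, and lot 1 gave 6.90 and 3.83 in the same conditions. The third, chr19:9015699-9018728, had 40.6 in TKO cells, but here lot 1 gave 9.56 in serum, 36.1 at 24 h and 25.3 at 3 passages, the 2i values at percentiles 93.2 and 90.6 of their lists, while the lot 2 lists of KH2 cells had no peak. The highest TKO fold of any Nanog-alone region was 81.4 on chr9:56007491-56009232, where KH2 cells had 15.6 at 24 h and 17.4 in GFP-high serum with lot 2, and 38.5 at 24 h and 17.5 at 3 passages with lot 1. On chr8:89268164-89271056 the TKO fold was 60.4, at percentile 97.5 of its list, and the KH2 fold at 24 h with lot 2 was 8.22, at percentile 25.7. The 3 lot 1 lists gave 6.40, 16.4 and 11.2 there.

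Other regions that led a list were missing from 1 or more of the others. The highest 3 passage fold, 58.2 on chr12:73789952-73791232, was found in no other Nanog list, so it has no support from a second list. On chr9:99143126-99145276 the serum fold was 33.5, 24 h gave 27.1 and 3 passages 14.0, and with lot 2 TKO cells had 26.1, KH2 cells at 24 h 5.08 and GFP-high cells no peak. On chrX:131073926-131076905 the folds were 42.1 at 24 h and 31.2 at 3 passages with lot 1, and 37.7 in TKO, 9.99 in KH2 and 9.98 in GFP-high cells, with no serum peak of lot 1. On chr11:79951990-79954055 they were 41.0 in TKO and 27.05 in KH2 cells at 24 h with lot 2 and 21.3 at 3 passages, with no peak in either serum list or at 24 h with lot 1.

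The 3 highest GFP-high folds lay at regions absent from the serum and 24 h lists of lot 1. They were 70.5 on chr9:123370835-123371470, 55.9 on chr9:3023178-3023814 and 52.3 on chr2:176864160-176865759, where 3 passages of lot 1 gave 19.8, 15.3 and 27.9. A neighbour of the second, chr9:3021848-3022476, had 67.1 in TKO cells, 21.3 in KH2 cells at 24 h, 28.8 in GFP-high cells and 10.04 at 3 passages. Both lie near the start of the chromosome 9 sequence, where the mouse assembly holds satellite repeats that often give high signal in ChIP-seq. All 4 are called only by lists that also name unplaced contigs, and what part the set of sequences used for alignment has in them was not tested.

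The regions nearest the width limit were all called at 24 h with lot 1 and differed in the other lists. So were 89.4% of all Nanog-alone regions called at 24 h with lot 1, and the rule required a lot 1 peak on both sides of the limit of 4000 bp. The 3 nearest below it had serum H3K4me3 peaks of 3999 bp (chr17:13183050-13187130), 3996 bp (chr8:87558784-87563249) and 3991 bp (chr7:140311096-140315167), with 24 h lot 1 Nanog folds of 5.76, 7.65 and 10.3 and serum lot 1 folds of 7.25, 7.85 and 6.19. They were called in 2, 3 and 4 Nanog lists. The 3 nearest above it measured 4003 bp (chr4:28739322-28743398), 4006 bp (chr16:33055750-33059755) and 4006 bp (chr3:88355567-88359572), and the last was called at 24 h and in serum with lot 1, the others at 24 h with lot 1 alone. In all, 180 regions met the rest of the rule but had a serum peak over 4000 bp.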

How the data were processed

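ChIP-seq peak lists were analysed for Nanog (6 lists), H3K4me3 (3), Oct4 (2) and Sox2 (3), 14 lists from 22 of the 36 samples. The H3K27me3, whole-cell extract and RNA samples were not used here. Per the submitters' processing notes the build was mm9 and the tools included MACS2, Bowtie 0.12.7 and BWA 0.5.7. Not given in the sources used here are the aligner behind each list, what was pooled and how peaks were selected. The Sox2 libraries, whose molecule is labelled RNA, were treated as ChIP-seq. The authors deposited for every peak a fold enrichment (ratio to the control), a −log10 q and a summit position, given as an offset from the peak start. Depth is unknown, since no list holds counts. Lists were labelled with the antibody lot the labels give, and 0 columns of samples outside the series were present.

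Peaks on chromosomes 1 to 19 and X were merged and overlapped (1 bp minimum) in Python 3.11.15 with NumPy 2.4.6, pandas 2.3.3 and SciPy 1.17.1, and figures were drawn with matplotlib 3.10.9. bedtools 2.31.1 found the same 2632 regions, and the overlap code was tested on simulated peaks. Where a list had several peaks in a region the one with the largest −log10 q was used. Shares carry Clopper-Pearson 95% intervals. With 1 list per condition no test was made. Named regions are the 3 with the highest fold in each Nanog list, the 5 leading regions called in all 6 lists, the 3 leading regions called in all 2i lists and no serum list, in both serum lists and no 2i list of KH2 cells, and in TKO cells and no lot 2 list of KH2 cells, and the 3 nearest the width limit on each side. The regions, comparison classes and rules were chosen with earlier results of these data known. Coordinates are 1-based mm9. Gene names and sequences were not assigned, because the annotation used here belongs to GRCm38.p6. Alternatives were a minimum −log10 q of 10, Nanog lists of equal length (21893 peaks, those with the largest −log10 q), an overlap of 50% of the shorter interval, a summit inside the region, no Oct4 or Sox2 peak within 1000 bp, the strongest peak by fold, and summed H3K4me3 widths. A shared lowest −log10 q for the lot 2 lists of TKO and KH2 cells at 24 h, and leaving out chromosome 6, were chosen after seeing the data.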

Additional observations from a re-analysis of the deposited data

Results flagged for a closer look

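The share of Nanog-alone regions called after 24 h of 2i, less the share called in serum, had opposite signs with the 2 antibody lots. It was 48.8 percentage points with lot 1 and -4.94 points with lot 2, where the serum cells were GFP-high. The difference between the lots was not tested, since each lot had 1 list per condition. The lot 1 calls were used to choose the regions and the lot 2 calls were not. With the Nanog lists at equal length the values were -10.7 points with lot 1 and -1.94 points with lot 2.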

How the results depend on the processing

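No paired analysis was possible because each condition has 1 list in which any replicates were pooled, and for the same reason no replicate could be left out. Of 63 values of the main counts and shares under alternatives, 51 stayed within their intervals (counts within 1.5 times) and 12 did not. Some of the 51 could not move. The shared lowest −log10 q is that of the TKO list and trimmed only the KH2 list. The regions and the shares of the other lists were therefore fixed in that setting. The minimum −log10 q lay below the lowest value of every Nanog and Oct4 list. It removed only H3K4me3 and Sox2 peaks, so the tally alone does not measure stability. With the Nanog lists at equal length the regions numbered 1029, and the shares called were 68.9% in serum, 58.2% at 24 h with lot 1, 45.0% in TKO cells, 18.8% in KH2 cells at 24 h with lot 2 and 20.7% in GFP-high cells, with a difference of 26.2 points between TKO and KH2. With an overlap of 50% of the shorter interval the share at 24 h with lot 1 was 87.9%, the TKO share 45.1% and the TKO minus KH2 difference 36.9 points. With the summit in the region the TKO share was 45.7%. With the TKO and KH2 lists of lot 2 at a shared lowest −log10 q of 27.6 the KH2 share was 7.52%. The share in TKO cells was above that in KH2 cells under each of the 7 alternatives, by 26.2 to 40.8 points. The cause of these shifts was not tested, except that shorter lists hold fewer peaks by construction. Median folds, summit distances and H3K4me3 widths moved by less than 1 SD over regions in all 15 cases. These values had little room to move. The fold cases used the minimum −log10 q, which removed no Nanog peak. The distance and width cases could change only regions with more than 1 peak of a list. The 15 cases therefore do not measure stability either. A missing call does not show that Nanog, Oct4 or Sox2 is absent, since depth is unknown and each list ends at its own −log10 q.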
